A study of Mus musculus with 23 samples.

Results

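The genes described here are 8 transcripts that glucocorticoids are known to induce (Fkbp5, Sgk1, Tsc22d3, Plin4, Zbtb16, Pdk4, Ddit4 and Arrdc2) and the genes of the 2 receptors that bind these hormones (Nr3c1 and Nr3c2). They were chosen by name as members of this pathway, with earlier results of these data known. These 10 symbols are 10 of the 24985 gene symbols in the 2 deposited count tables. All 10 passed the filter on low counts in both tables. The study sequenced polyadenylated RNA from the hippocampus of C57BL6/J mice that lack the acetyl-CoA synthetase gene Acss2, and of mice that keep it. The loss was constitutive: exons 3 to 7 of Acss2 were removed in single-cell embryos, so it was not limited to the hippocampus. The labels give neither age nor sex, nor the number of founders.

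The libraries fall into 7 groups. Whole hippocampi were dissected freehand from homozygous (KO), heterozygous (Het) and wild-type (WT) mice taken from the home cage, with 2 libraries per genotype, all from batch B0. The labels list these mice as baseline. Dorsal sections of 1 mm thickness were cut with a brain matrix from KO mice after fear conditioning (4 libraries), KO mice from the home cage (5), WT mice after fear conditioning (3) and WT mice from the home cage (5). Fear-conditioned mice had received a single shock in a training context 30 minutes before tissue was taken. No group was handled or placed in the context without a shock, so the effects of the shock, the context and handling cannot be told apart. The dorsal libraries came from batches B1, B2 and B3, as the labels name them. All WT fear libraries were from B1, KO fear libraries were from B1 and B3, KO home cage libraries from B2 and B3, and WT home cage libraries from B1 and B2.

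Corticosterone, the main glucocorticoid of rodents, reaches the brain in daily and hourly pulses and in larger amounts after stress. In the hippocampus it binds the mineralocorticoid receptor, which is occupied already at resting hormone levels, and the glucocorticoid receptor, which fills as the hormone rises. Bound receptors move to the nucleus, attach to short palindromic sequences in DNA and raise transcription of their targets, among them a gene that in turn lowers the receptor's affinity for the hormone. Receptor-driven transcripts build up over minutes to hours, and many of them are also set by insulin, cyclic AMP, osmotic or metabolic signals.

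Total counts ran from 18814460 to 27293661 in the whole hippocampus libraries and from 5362773 to 23412644 in the dorsal ones, with the WT fear libraries the shallowest (5362773 to 9109104). Acss2 stood at 6.88 ± 0.21 CPM (the reads of a gene scaled to the size of its library) in whole KO, 32.8 ± 2.2 in Het and 60.6 ± 0.45 in WT libraries (SD, n = 2 each), and at 3.87 to 6.04 CPM in the 9 dorsal KO libraries, so the genotype labels held throughout. The whole KO libraries had Xist at 0.141 ± 0.0056 CPM and Ddx3y at 95.1 CPM, whereas the Het libraries had 621 ± 33 CPM of Xist and 0.146 of Ddx3y, and the WT libraries 670 ± 9.7 and 0 CPM. In the whole hippocampus the homozygous genotype and these sex-linked transcripts therefore cannot be told apart, and Tsc22d3 lies on the X chromosome. Library 2 of the Het group stood apart, with summed CPM of 372 for 5 neocortical markers (145 to 181 in the other whole libraries), 507 for 5 markers of CA1 pyramidal cells (704 to 791) and 903 for 10 genes induced rapidly by activity (474 to 620). In the dorsal libraries the WT fear group stood apart: 12 oligodendrocyte markers summed to 4087 to 5469 CPM there, against 7038 to 14078 in WT home cage libraries. In tissue as a whole, fewer cells of a type and less RNA per cell cannot be told apart.

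Levels of different genes were compared per kilobase of exon. In dorsal WT home cage libraries the mineralocorticoid receptor gene Nr3c2 was the highest of the 10, at 49.1 ± 3.6 CPM per kilobase, and the glucocorticoid receptor gene Nr3c1 stood at 16.7 ± 1.5 (SD, n = 5). Between them lay Ddit4 at 31.7 ± 6.4. Sgk1 at 15.6 ± 0.89 and Zbtb16 at 14.7 ± 2.5 did not differ from Nr3c1 or from each other beyond their spread. Tsc22d3 followed at 10.5 ± 0.93, Fkbp5 at 7.81 ± 1.1, Pdk4 at 3.12 ± 0.77, Arrdc2 at 2.82 ± 0.35 and Plin4 at 0.221 ± 0.079, and of these Pdk4 and Arrdc2 lay within each other's spread.

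The order was different in whole WT libraries. Ddit4 came first at 51.2 ± 2.3 CPM per kilobase, then Nr3c2 at 32.8 ± 1.6, Sgk1 at 27.2 ± 2.8, Zbtb16 at 21.6 ± 1.7, Tsc22d3 at 21.1 ± 1.1 and Nr3c1 at 15.2 ± 0.18 (SD, n = 2), with Zbtb16 and Tsc22d3 inside each other's spread. Fkbp5 stood at 8.03 ± 0.30, Arrdc2 at 5.85 ± 0.19, Pdk4 at 3.66 ± 0.31 and Plin4 at 0.322 ± 0.064. The 2 tables were scaled separately and differ in dissection and batch, so no test was made between them. They differ in sex-linked transcripts as well. Xist, Ddx3y, Eif2s3y, Kdm5d and Uty summed to 663 to 677 CPM in whole WT and 151 to 203 in dorsal WT home cage libraries. In whole KO libraries the sum was 209 to 218 CPM. The sum mixes Xist with male-linked transcripts, so it does not by itself give the sex of a library. Of the 5 genes, 4 passed the filter on low counts in the dorsal table. Exon lengths are unions over annotated transcripts, and a transcript form that is not used in hippocampus lowers its gene's value.

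Sgk1, the serum- and glucocorticoid-regulated kinase, acts on ion channels and transporters, and it varied most of the 10 genes across the 7 groups. The range of its group means, each centred on its own table, was 1.18 on the log2 scale, followed by Zbtb16 at 0.88, Plin4 at 0.84, Arrdc2 at 0.73 and Ddit4 at 0.72. Nr3c1 spanned 0.59, Tsc22d3 0.54, Nr3c2 0.48, Pdk4 0.47 and Fkbp5 0.43. Sgk1 lies on the plus strand of chromosome 10 at 21882184 to 21999903 (mm10), with 6 annotated start sites in RefSeq. Of its start windows 1 holds the exact form of the palindrome that the receptors bind, with both arms intact and a short spacer between them. Arms and spacer are shown here in capitals within the 250 bases before that start, 5′ to 3′ on the plus strand of chr10:21993640-21993889 (RefSeq, GRCm38.p6).

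Sgk1: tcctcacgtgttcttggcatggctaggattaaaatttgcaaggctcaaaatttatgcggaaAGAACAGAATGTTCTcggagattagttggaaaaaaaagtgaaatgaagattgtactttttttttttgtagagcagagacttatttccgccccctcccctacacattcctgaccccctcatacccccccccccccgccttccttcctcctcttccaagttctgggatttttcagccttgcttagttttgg

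The single arm TGTTCT occurs once more in this window, in lower case near its 5′ end. The palindrome begins 189 bases before this start and 965 bases before the next annotated one. The palindrome, searched on both strands as the arms AGAACA and TGTTCT with any 3 bases between them, occurs in 3 of 32851 start windows of 300 bases (0.00913%), those of Sgk1, Acnat2 and Gm35041. Of the 10 genes, 8 were matched in the table of start windows, and Zbtb16 and Nr3c1 were not. The arm TGTTCT, which is part of the palindrome, is common, with a match on either strand in 19% of all windows and 21.3% of genes. Among the matched genes it was found in windows of Sgk1 and Tsc22d3. Tsc22d3, also called GILZ, encodes a leucine zipper protein that binds NF-κB and AP-1 and is a classical target of the glucocorticoid receptor. Its gene spans 140539528 to 140600659 on the minus strand of the X chromosome (mm10), and the arm is in capitals within the 250 bases before 1 of its starts, 5′ to 3′ on the minus strand of chrX:140600523-140600772 (RefSeq, GRCm38.p6), where it begins 185 bases before that start.

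Tsc22d3: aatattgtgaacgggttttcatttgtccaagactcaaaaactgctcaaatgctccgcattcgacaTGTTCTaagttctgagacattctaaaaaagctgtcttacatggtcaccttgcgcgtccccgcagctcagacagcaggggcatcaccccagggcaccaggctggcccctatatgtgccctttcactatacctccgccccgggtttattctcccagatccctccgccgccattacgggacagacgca

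These matches describe letters in the windows searched. Receptors also bind far from start sites, and no binding was measured in this series.

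**Figure D1:**
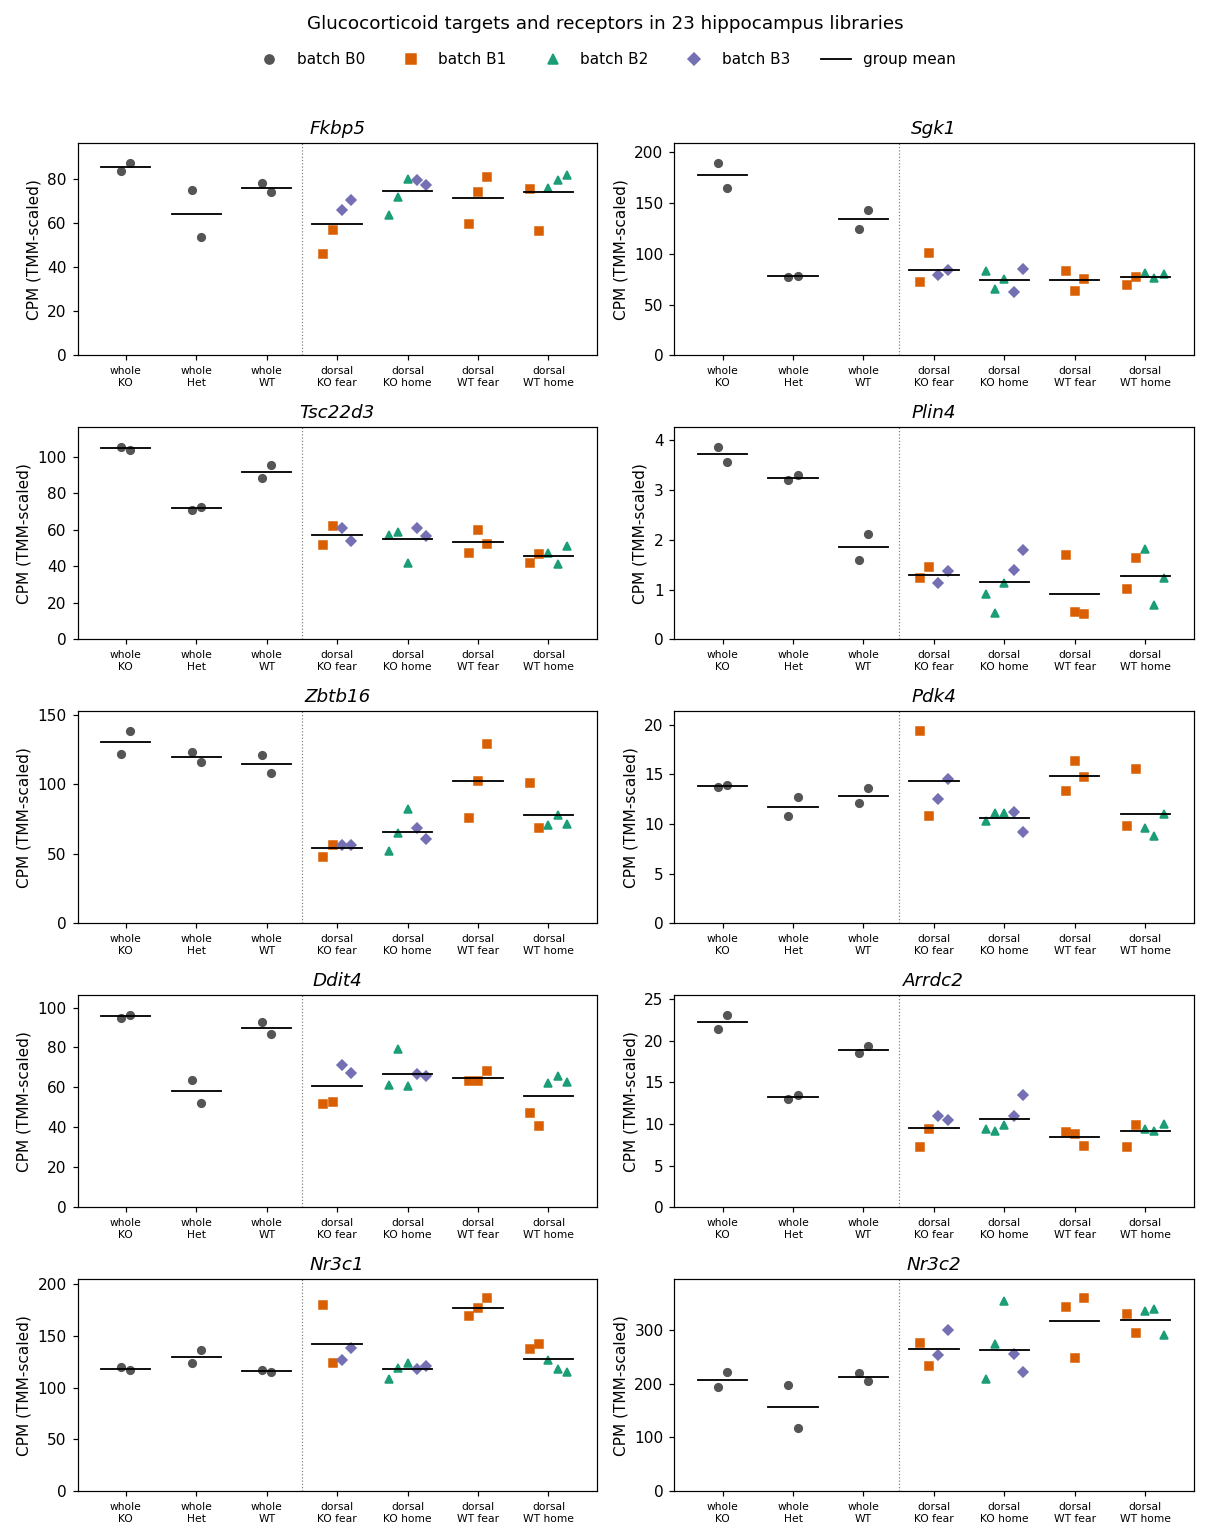
Levels of the 8 induced genes and the 2 receptor genes in CPM (vertical axes, from 0) in each of the 23 libraries, by group; points are libraries, marked by batch, and lines are group means. Sgk1 in whole hippocampus lies at 164 to 189 CPM in KO, 77.4 to 77.9 in Het and 124 to 143 in WT libraries, and Zbtb16 after fear conditioning lies lower in every KO library than in any WT library.

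In whole hippocampus 6 of the 8 induced genes, all but Plin4 and Zbtb16, had their highest mean in KO and their lowest in Het. The share of all genes with this order of means was not counted, so the order is a description and not a result about these genes. Sgk1 and Tsc22d3 rose in KO against Het hippocampus, and Arrdc2, Ddit4 and Fkbp5 had positive differences that did not pass. Values below are CPM scaled by TMM (trimmed mean of M values), differences are log2 with their standard error, and p-values are from edgeR's quasi-likelihood F test with Benjamini-Hochberg adjustment over all 15453 genes tested in this table.

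Sgk1 stood at 189 and 164 CPM in the KO libraries, 77.4 and 77.9 in the Het libraries and 124 and 143 in the WT libraries. The 3 genotypes did not overlap, and the Het libraries were the lowest. KO exceeded Het by 1.19 ± 0.095 (2.28-fold, adjusted p = 0.0158). Tsc22d3 stood at 105 and 104 CPM in the KO libraries, 71.0 and 72.4 in the Het libraries and 88.3 and 95.2 in the WT libraries. Its genotypes were likewise apart, in the same order as for Sgk1. KO exceeded Het by 0.54 ± 0.056 (1.46-fold, adjusted p = 0.0485). These were 2 of the 10 genes, where 0.0841% of all genes tested were called in either direction and 0.0453% higher.

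Both calls rest on few libraries. Sgk1 no longer passed without WT 1 (adjusted p = 0.0540), Het 2 (0.10) or KO 1 (0.0934), and Tsc22d3 passed in 1 of the 6 fits that leave out a library, the one without Het 1, with an adjusted p of up to 0.528 in the others. In the fit without Het 2, the library that stood apart, Het 1 stands alone for its genotype, and the differences were 1.19 for Sgk1 and 0.56 for Tsc22d3.

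Arrdc2, an arrestin-domain gene of the family that sorts membrane receptors and transporters, stood at 21.3 and 23.1 CPM in the KO libraries, 13.0 and 13.4 in the Het libraries and 18.5 and 19.3 in the WT libraries. The 3 genotypes were apart here too, and KO minus Het was 0.75 ± 0.085 (adjusted p = 0.0715). Ddit4, known as REDD1, encodes a stress-induced inhibitor of mTOR signalling. It stood at 94.6 and 96.5 CPM in the KO libraries, 64.0 and 52.3 in the Het libraries and 92.6 and 87.0 in the WT libraries, and here the WT libraries lay close to the KO ones. KO minus Het was 0.72 ± 0.096 (adjusted p = 0.112).

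Fkbp5 encodes the co-chaperone of Hsp90 that lowers hormone binding by the glucocorticoid receptor and is itself induced by that receptor. It had 83.8 and 87.5 CPM in the KO libraries, 74.9 and 53.7 in the Het libraries and 78.0 and 74.0 in the WT libraries. The low value was that of Het 2, and Het 1 lay between the WT libraries. KO minus Het was 0.42 ± 0.14 (adjusted p = 0.321).

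Plin4 encodes a perilipin that coats lipid droplets. It had 3.87 and 3.56 CPM in the KO libraries, 3.20 and 3.31 in the Het libraries and 1.60 and 2.12 in the WT libraries, from 35 to 107 reads per library. Unlike the genes above, Plin4 had its lowest values in WT. KO minus WT was 0.99 ± 0.19 (1.99-fold, adjusted p = 0.774) and Het minus WT was 0.80 ± 0.19 (1.74-fold, adjusted p = 0.255), neither of which passed. Exons of Plin4 and of Hdgfl2 on the other strand share 17 bases, and the library kit does not mark strand, so reads there cannot be assigned to either gene.

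Zbtb16 encodes PLZF, a zinc finger repressor of transcription. In whole hippocampus it had 122 and 139 CPM in the KO libraries, 123 and 116 in the Het libraries and 121 and 108 in the WT libraries. Pdk4, the kinase that shuts off pyruvate dehydrogenase and so the supply of acetyl-CoA from glucose, had 13.7 and 13.9 CPM in KO, 10.8 and 12.7 in Het and 12.1 and 13.6 in WT libraries. Genotypes differed little in both, and KO minus Het was 0.12 ± 0.085 for Zbtb16 and 0.23 ± 0.12 for Pdk4 (adjusted p = 0.552 and 0.449).

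Nr3c1 had 119.7 and 117 CPM in the KO libraries, 124 and 136 in the Het libraries and 118 and 116 in the WT libraries. Its KO and WT libraries overlapped, and the Het libraries lay above both. KO minus Het was -0.14 ± 0.060 (adjusted p = 0.397). Nr3c2 had 193 and 222 CPM in the KO libraries, 198 and 117 in the Het libraries and 219.9 and 205 in the WT libraries. Het 2 had the low value, and the other 5 libraries lay between 193 and 222 CPM. Exons of Nr3c2 share 247 bases with Gm10649 on the other strand.

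All 8 induced genes had a positive KO minus Het difference, with a median of 0.48 against -0.0027 over all genes, 49.3% of which were above 0. In 7 of the 8, all but Zbtb16, both KO libraries exceeded both Het libraries, which held for 20% of all genes. Against WT, too, all 8 differences were positive, with a smaller median of 0.19 (0.0048 over all genes, 51.5% of which were above 0), and the KO libraries lay above the WT libraries for all 8, as they did for 20.2% of all genes. Apart from Plin4, the largest were Sgk1 at 0.41 ± 0.093 (adjusted p = 0.774), Arrdc2 at 0.23 ± 0.083 (adjusted p = 0.802) and Tsc22d3 at 0.19 ± 0.056 (adjusted p = 0.774). None of the 10 genes was called in KO against WT, where 0.0388% of all genes were. Their unadjusted p was under 0.05 for Sgk1, Tsc22d3, Plin4 and Arrdc2, as it was for 941 of all genes (6.09%), and DESeq2 called none of the 10 and 19 genes in all (0.142%). The 2 comparisons share the KO libraries and are not independent. The genes were chosen with earlier results of these data known, so these counts and medians are descriptions.

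In Het against WT hippocampus the differences were -0.78 ± 0.095 for Sgk1, -0.63 ± 0.096 for Ddit4, -0.52 ± 0.085 for Arrdc2 and -0.36 ± 0.056 for Tsc22d3 (adjusted p = 0.122, 0.167, 0.168 and 0.167). In each of these 4, and in Nr3c2, the Het libraries lay below the WT libraries, as they did for 22.9% of all genes. Fkbp5 stood at -0.25 ± 0.14 and Nr3c2 at -0.44 ± 0.22, and Nr3c1 at 0.16 ± 0.060, its Het libraries above the WT ones as for 23.7% of all genes. The edgeR test called none of the 10 and none of all 15453 genes (0%), although 2145 (13.9%) had an unadjusted p under 0.05. DESeq2 called 147 genes (1.18% of those it tested) and 4 of the 10, with adjusted p = 3.89e-08 for Sgk1, 7.16e-05 for Ddit4, 0.00709 for Tsc22d3 and 0.0477 for Arrdc2. In the edgeR fit without Het 1, in which Het 2 stands alone for its genotype and is assumed to vary as the other groups do, 7 of the 10 genes and 9% of all genes were called.

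Markers of other cells moved with these comparisons, and their part in the differences was not tested. Choroid plexus markers, 6 genes summed, reached 3997 and 30.3 CPM in the KO libraries, 34.6 and 964 in the Het libraries and 31.9 and 2537 in the WT libraries, so they varied within every genotype. The 12 oligodendrocyte markers summed to 8253 and 8662 CPM in KO, 7842 and 8341 in Het and 7020 and 6807 in WT libraries, lowest in WT.

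**Figure D2:**
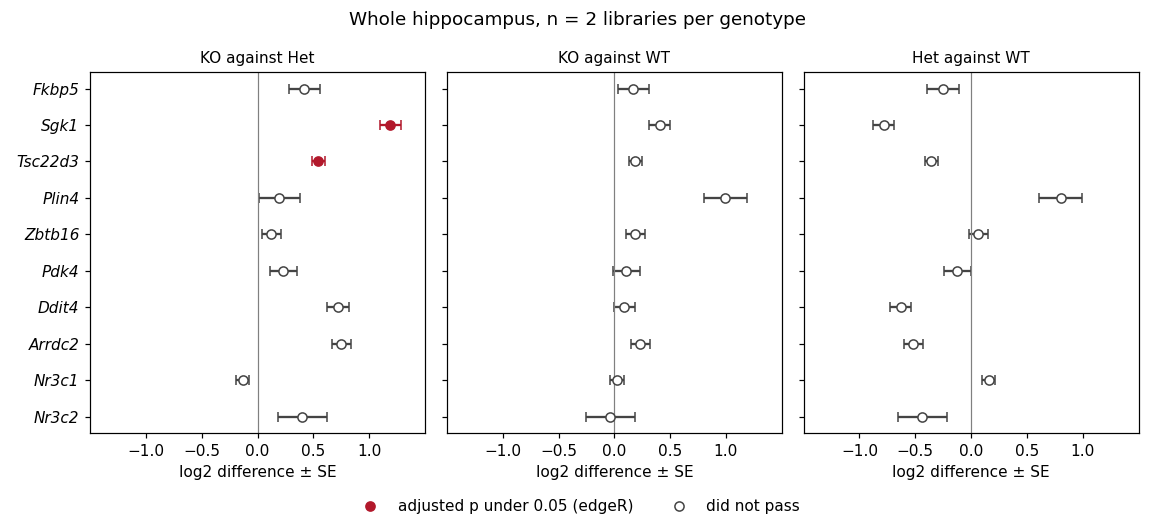
Log2 differences with standard errors (horizontal axes) for the 10 genes between genotypes in whole hippocampus, 2 libraries per genotype; filled points passed an adjusted p of 0.05 in edgeR. Sgk1 at 1.19 and Tsc22d3 at 0.54 are filled in KO against Het, and no point is filled in the comparisons with WT.

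After fear conditioning, Ddit4 rose in the dorsal hippocampus of WT mice, and the other 9 genes did not pass. The dorsal fit covered 17 libraries and 14808 genes with batch as a term. Ddit4 had 63.4, 63.1 and 68.3 CPM in WT fear libraries, against 47.2, 40.5, 62.4, 65.8 and 62.7 in WT home cage libraries. The home cage values fell into 2 levels by batch, the first 2 libraries being from B1, as all fear libraries were, and the other 3 from B2. The fitted difference was 0.54 ± 0.11 (1.46-fold, adjusted p = 0.0330), and Ddit4 was 1 of 10 genes called where 1.63% of all genes were (0.871% higher). Within B1 alone the fear libraries lay above the home cage ones, with a difference of 0.58 that did not pass with 5 libraries (adjusted p = 0.173). Without the batch term it was 0.21 (adjusted p = 0.397). The call was also lost without WT home cage 2 (adjusted p = 0.261), WT fear 2 (0.126), WT fear 3 (0.129), KO home cage 4 (0.0512), KO fear 3 (0.0503) or KO fear 4 (0.0502). Of all genes, 6, 13, 10, 32, 95 and 56 were called in those fits in the same order, against 241 with all libraries.

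Nr3c1 had 169, 177 and 186 CPM in WT fear libraries, against 137, 143, 126, 118 and 115 in WT home cage libraries. The groups did not overlap, overall or within B1, as was the case with the fear libraries higher for 7.70% of all genes overall and 14.1% within B1. The difference of 0.34 ± 0.12 did not pass (adjusted p = 0.123), while DESeq2 gave 0.36 with an adjusted p of 0.0447, one of 6.34% of genes called by it, and edgeR without the batch term 0.47 with 0.0252. Nr3c2 had 343, 249 and 359 CPM in WT fear libraries, against 329, 294, 336, 339 and 292 in WT home cage libraries, which overlapped.

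The receptor targets Fkbp5, Sgk1 and Tsc22d3 did not pass in this comparison. Fkbp5 had 59.7, 74.2 and 80.8 CPM in WT fear libraries, against 75.5, 56.5, 76.2, 79.8 and 81.9 in WT home cage libraries (0.12 ± 0.14, adjusted p = 0.611). Sgk1 had 83.2, 63.1 and 75.4 CPM in WT fear libraries, against 69.5, 76.8, 80.5, 76.5 and 80.0 in WT home cage libraries (-0.022 ± 0.15, adjusted p = 0.947). Groups overlapped for both genes. Tsc22d3 had 47.4, 59.9 and 52.3 CPM in WT fear libraries, against 41.8, 46.8, 47.1, 41.3 and 50.9 in WT home cage libraries (0.23 ± 0.15, adjusted p = 0.382). Within B1 its fear libraries lay above the home cage ones, as for 14.1% of all genes, while Fkbp5 and Sgk1 overlapped there too.

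Zbtb16 had 76.1, 102 and 129 CPM in WT fear libraries, against 101, 68.9, 70.6, 77.8 and 71.5 in WT home cage libraries. Its fear libraries spread widely and overlapped with home cage (0.34 ± 0.19, adjusted p = 0.315). Pdk4 stood at 0.30 ± 0.21, Arrdc2 at -0.065 ± 0.17 and Plin4, with 4 to 32 reads per dorsal library, at -0.86 ± 0.54, and none of these passed. The WT fear libraries differed from home cage in markers of cell types as well, and the part of this in the values above was not tested. Of 12 oligodendrocyte markers, 9 fell (median -1.23), and of 5 CA1 markers, 4 rose (median 1.2), while 8 of 10 rapidly activity-induced genes rose (median 1.64). The median farthest from 0 was that of 6 ependymal markers, at -3.93 with 4 lower, and their sums were 6.69 to 9.23 CPM in WT fear and 35.9 to 94.96 CPM in WT home cage libraries.

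In KO mice, edgeR called none of the 10 genes and none of all genes tested (0%) after fear conditioning. An unadjusted p under 0.05 was reached by 714 genes (4.82%) but by none of the 10, and DESeq2 called 6 genes (0.0405%), none of them among the 10. Ddit4 had 51.7, 52.6, 71.0 and 67.3 CPM in KO fear libraries, against 61.1, 79.1, 60.5, 66.8 and 65.6 in KO home cage libraries (0.10 ± 0.10, adjusted p = 0.968). The 2 fear libraries from B1 were the low ones. Within B3, the batch that holds both KO groups, the 2 fear libraries (71.0 and 67.3) lay just above the 2 home cage ones (66.8 and 65.6), as for 18.6% of all genes, at a difference of 0.053 (adjusted p = 0.939). Nr3c1 had 180.4, 124, 127 and 139 CPM in KO fear libraries, against 108, 119, 124, 118 and 121 in KO home cage libraries. The groups were just apart, as for 2.33% of all genes with fear higher, with a difference of 0.16 ± 0.11 (adjusted p = 0.968).

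Zbtb16 had 47.6, 56.4, 56.5 and 56.4 CPM in KO fear libraries, against 52.3, 65.0, 82.0, 68.7 and 60.9 in KO home cage libraries. They overlapped through 1 home cage library, which was from B2, at a difference of -0.33 ± 0.18 (adjusted p = 0.968). Within B3 the fear libraries (56.5 and 56.4) lay below the home cage ones (68.7 and 60.9). Fkbp5 and Plin4 were likewise apart and lower within B3, and Pdk4 and Nr3c1 apart and higher, as for 18.6% of all genes. The share of all genes lower there is not given. In B3 alone edgeR called none of the 10 genes and 2 of all genes. Pdk4 stood at 0.30 ± 0.18, Sgk1 at 0.22 ± 0.14, Fkbp5 at -0.21 ± 0.12, Arrdc2 at -0.13 ± 0.13, Nr3c2 at 0.10 ± 0.16, Plin4 at -0.082 ± 0.39 and Tsc22d3 at 0.042 ± 0.13. The KO fear libraries had CA1 marker sums of 377, 359, 808 and 902 CPM, low in the 2 from B1 and high in the 2 from B3. Of 10 rapidly activity-induced genes, 10 had positive differences in KO fear against home cage (median 0.43). An unadjusted edgeR p under 0.05 was reached by 5 of them, and none was called.

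In the home cage, none of the 10 genes was called between dorsal KO and WT hippocampus, and the 1 gene called of all (0.00675%) was Acss2. That count depends on KO home cage 3, without which edgeR called 585 genes, though none of the 10. An unadjusted p under 0.05 was reached by 1674 genes (11.3%) and by none of the 10, and DESeq2 called 2 genes (0.0135%), none of the 10. Tsc22d3 had 57.3, 58.8, 42.0, 61.0 and 56.4 CPM in KO home cage libraries, against 41.8, 46.8, 47.1, 41.3 and 50.9 in WT home cage libraries (0.23 ± 0.12, adjusted p = 0.445). Of the KO libraries 4 lay above all WT ones, and KO home cage 3 lay within the WT range. Nr3c2 had 209.7, 274, 353, 255 and 222 CPM in KO home cage libraries, against 329, 294, 336, 339 and 292 in WT home cage libraries (-0.28 ± 0.14, adjusted p = 0.448). Here 4 KO libraries lay below all WT ones and the same library, KO home cage 3, lay above them. With 1 library left out, the edgeR adjusted p ran from 0.0575 to 0.778 for Tsc22d3 and from 0.0601 to 0.778 for Nr3c2.

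Sgk1 had 83.2, 65.3, 75.2, 61.9 and 84.8 CPM in dorsal KO home cage libraries, against 69.5, 76.8, 80.5, 76.5 and 80.0 in dorsal WT home cage libraries (-0.042 ± 0.12, adjusted p = 0.894). The libraries overlapped. Zbtb16 stood at -0.23 ± 0.16, Fkbp5 at -0.15 ± 0.11, Plin4 at -0.31 ± 0.35, Ddit4 at 0.10 ± 0.089, Pdk4 at 0.073 ± 0.16, Arrdc2 at 0.032 ± 0.12 and Nr3c1 at -0.038 ± 0.096. For none of the 10 were KO and WT libraries apart, while the KO libraries lay above the WT ones for 1.71% of all genes and below them for 1.38%. Of 10 rapidly activity-induced genes, 10 had positive differences in home cage KO against WT (median 0.54). An unadjusted edgeR p under 0.05 was reached by 7 of them, and none was called.

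Among fear-conditioned mice, Zbtb16, Fkbp5 and Ddit4 fell in KO against WT dorsal hippocampus. Zbtb16 had 47.6, 56.4, 56.5 and 56.4 CPM in KO fear libraries, against 76.1, 102 and 129 in WT fear libraries. The KO libraries lay below the WT ones, as for 10.6% of all genes, and the difference was -0.91 ± 0.20 (0.533 of WT, adjusted p = 0.0155). Fkbp5 had 46.1, 56.7, 66.1 and 70.6 CPM in KO fear libraries, against 59.7, 74.2 and 80.8 in WT fear libraries. These overlapped overall but not within B1, where the KO libraries are the first 2 and where KO lay below WT for 23.9% of all genes, and the difference was -0.48 ± 0.14 (0.718 of WT, adjusted p = 0.0256). Ddit4 had 51.7, 52.6, 71.0 and 67.3 CPM in KO fear libraries, against 63.4, 63.1 and 68.3 in WT fear libraries. Again the 2 KO libraries from B1 were below all WT ones and the 2 from B3 were not, with a difference of -0.34 ± 0.11 (0.790 of WT, adjusted p = 0.0404).

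These 3 of 10 genes stand beside 22.3% of all genes called in this comparison, 12.1% lower, so the share is near the background. Within B1 alone, 2 KO against 3 WT libraries, Zbtb16 was at -0.97 (adjusted p = 0.0135), Fkbp5 at -0.47 (0.0818) and Ddit4 at -0.31 (0.168). Without the batch term, Zbtb16 was at -0.92 (adjusted p = 0.0188), Fkbp5 at -0.25 (0.258) and Ddit4 at -0.093 (0.725), so the size of the last 2 depends on the batch term. With 1 library left out, Zbtb16 was lost without WT fear 2 (0.0713), WT fear 3 (0.0679) or KO fear 2 (0.110), and Fkbp5 without WT fear 2 (0.0879), WT fear 3 (0.112), KO fear 1 (0.0987) or KO fear 2 (0.110). Without WT fear 2, WT fear 3 or KO fear 2, only 2, 1 and 1 of all genes were called, against 3298 with all libraries. The Zbtb16 difference in these fits was -0.91, -0.71 and -0.94. Without KO fear 1, 2068 of all genes were called. Ddit4 kept its call in 7 of 17 fits that each left out 1 library (adjusted p up to 0.134).

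Of the other 7 genes, Nr3c2 stood at -0.26 ± 0.18, Nr3c1 at -0.22 ± 0.12, Sgk1 at 0.20 ± 0.15, Plin4 at 0.47 ± 0.56, Pdk4 at 0.073 ± 0.21, Tsc22d3 at 0.047 ± 0.15 and Arrdc2 at -0.036 ± 0.17, and none passed. Without KO fear 1, whose Nr3c1 level of 180.4 CPM was the only one of its group in the WT fear range, Nr3c1 passed as lower in KO at -0.42 (adjusted p = 0.0349). It was called in only this 1 of 24 alternatives, where 2068 of all genes were called. Marker genes moved with this comparison too. In KO against WT fear libraries, 9 of 12 oligodendrocyte markers were higher (median 0.95) and 4 of 5 CA1 markers lower (median -1.07). Of the ependymal markers 6 of 6 were higher (median 3.52), and of the choroid plexus markers 4 of 6 (median 2.36). Their part in the values of Zbtb16, Fkbp5 and Ddit4 was not tested.

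The test of whether conditioning acted differently in KO than in WT called none of the 10 genes and 0.479% of all genes. The nearest were Ddit4 at -0.44 ± 0.13 (adjusted p = 0.0885), Zbtb16 at -0.68 ± 0.23 (adjusted p = 0.116) and Fkbp5 at -0.33 ± 0.16 (adjusted p = 0.226), where a negative value means a smaller rise or a larger fall in KO. An unadjusted p under 0.05 was reached by these 3 and by 3238 genes in all (21.9%). DESeq2 called Ddit4 (adjusted p = 0.0241) among 904 genes (6.23%). The Ddit4 rise in WT mice is therefore not shown to differ from the change in KO mice by edgeR.

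**Figure D3:**
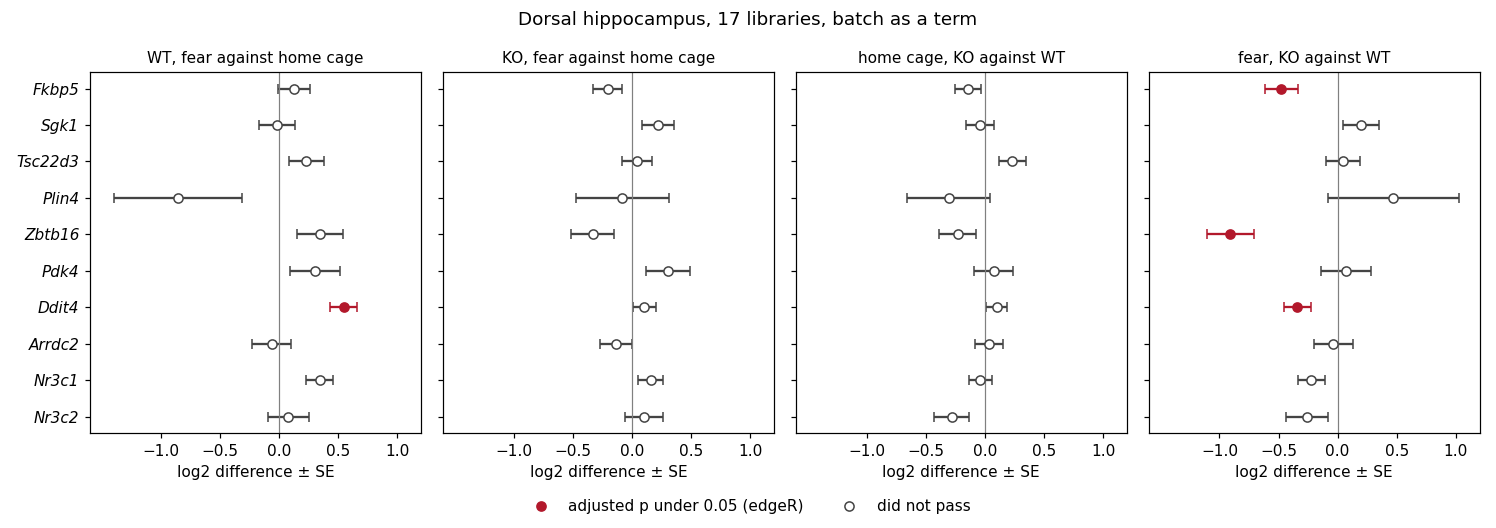
Log2 differences with standard errors (horizontal axes) for the 10 genes in dorsal hippocampus, from 1 fit over 17 libraries with batch as a term; filled points passed an adjusted p of 0.05 in edgeR. Ddit4 at 0.54 is filled in WT fear against home cage, and Zbtb16 at -0.91, Fkbp5 at -0.48 and Ddit4 at -0.34 are filled in KO against WT after fear conditioning.

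A further list held 22 other genes known to be induced by glucocorticoids, of which 20 were tested, all but Lcn2 and Slc10a6. It was chosen with earlier results of these data known. Dusp1 of this list is also a rapidly activity-induced gene, and Gjb6 is also an astrocyte marker. In whole KO against Het hippocampus 17 of the 20 had positive differences (median 0.23), where 49.3% of all genes did (median -0.0027). The list was led by the NF-κB inhibitor gene Nfkbia at 0.52, the kinase inhibitor gene Errfi1 at 0.50 and the metallothionein gene Mt2 at 0.47, and none passed. The difference farthest from 0 was negative, that of the phosphatase gene Dusp1 at -1.0 ± 0.33 (adjusted p = 0.315), a gene named here after its value was seen. In KO against WT 14 of 20 were positive (median 0.083), where 51.5% of all genes were (median 0.0048). In Het against WT 7 of 20 were positive (median -0.14, against 0.0012 over all genes), with Mt2 at -0.73 ± 0.10, Mt1 at -0.62 ± 0.095 and the clock gene Per1 at -0.36 ± 0.070.

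In WT mice after fear conditioning Per1, a clock gene with rapid glucocorticoid and cyclic AMP responses, rose by 0.84 ± 0.20 (adjusted p = 0.0494). That call held in 4 of 17 fits that each omit 1 library (adjusted p up to 0.321) and was also lost within B1 alone, at 0.79 (adjusted p = 0.242). The zinc finger repressor gene Bcl6 stood at 0.53 ± 0.16 (adjusted p = 0.0836) and Dusp1 at 0.76 ± 0.24 (adjusted p = 0.0910), and the list median was 0.085 against -0.019 over all genes. In KO mice after fear conditioning none of the 20 was called (median -0.089). In the home cage none was called in KO against WT (median 0.15), where Mt1 stood at 0.72 ± 0.21 and Mt2 at 0.79 ± 0.23 (adjusted p = 0.440 each). Among fear-conditioned mice Bcl6 fell by 0.81 ± 0.16 and Per1 by 0.88 ± 0.21 in KO against WT (adjusted p = 0.0155 and 0.0163), and Mt1 rose by 0.93 ± 0.25 (adjusted p = 0.0218), 3 of 20 genes beside the 22.3% of all genes.

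The list of genes that fold the receptors, activate or inactivate the hormone, or assist the receptors on DNA held 14 genes. Of these 13 were tested, and Hsd11b2, the enzyme that inactivates corticosterone, had too few reads. None was called in the comparisons of whole hippocampus, nor in either fear against home cage comparison, nor between genotypes in the home cage. Among fear-conditioned mice, 2 of the 13 were called higher and 4 lower in KO against WT, beside 22.3% of all genes called in either direction. Of the lower ones 1 is not reported here. Hsd11b1, the enzyme that regenerates active hormone, rose in KO against WT by 0.90 ± 0.19 and the chaperone gene Hspa8 by 0.37 ± 0.10. The coactivator genes Ncoa1 and Ncoa2 fell by 0.76 ± 0.18 and 0.78 ± 0.19 and the chaperone gene Hspa4 by 0.26 ± 0.086, with adjusted p from 0.0155 to 0.0405. These calls, and those of Bcl6, Per1 and Mt1, were all lost without WT fear 2, WT fear 3 or KO fear 2 (adjusted p from 0.0656 to 0.182). Of all genes only 2, 1 and 1 were called in those fits, against 3298 with all libraries. Mt2, Bcl6, Dusp1 and Ncoa1 share exonic bases with genes on the other strand, and Hspa8 holds small nucleolar RNA genes, which these counts may not separate.

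**Figure D4:**
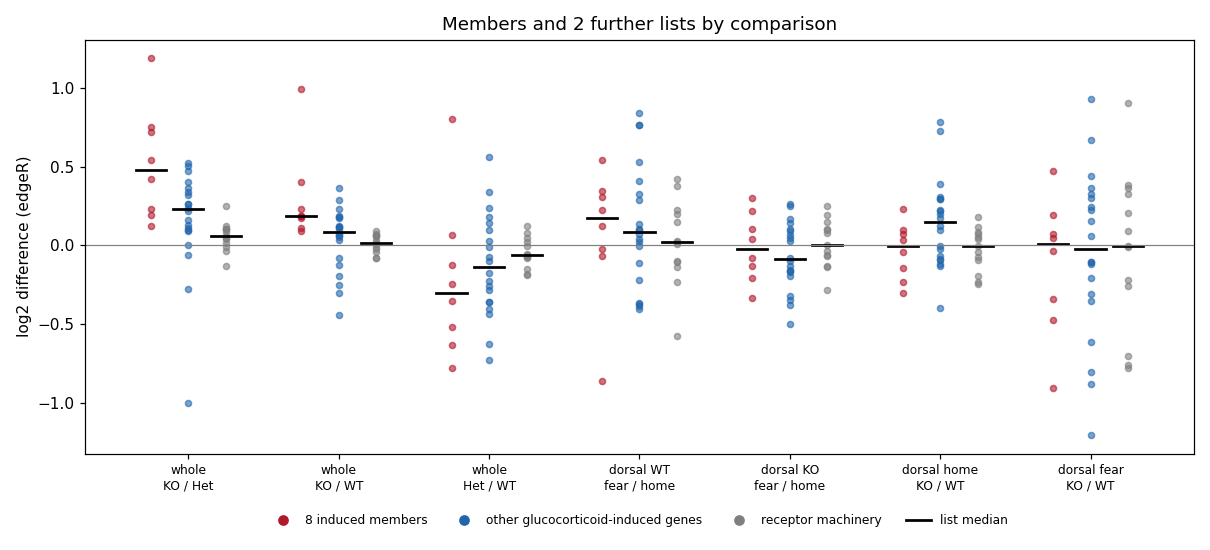
Log2 differences (vertical axis) of the 8 induced genes, 20 other glucocorticoid-induced genes and 13 genes of receptor folding, hormone conversion and cofactors in 7 comparisons; points are genes and bars are list medians. The induced genes have medians of 0.48 in whole KO against Het, 0.19 in KO against WT and -0.30 in Het against WT.

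For the 3 genes with the widest range over the 7 groups, the genes with the most similar centred group means were found among 14690 candidates expressed in both tables. For Sgk1 these were the sugar transporter gene Slc2a12 (root mean square difference 0.0946 on the log2 scale over the 7 groups), 1700048O20Rik (0.106) and Kl (0.124), the gene of klotho and 1 of the 6 choroid plexus markers summed above. For Zbtb16 they were Setd1b (0.0417), the potassium channel gene Kcnb2 (0.0487) and Palm2 (0.0489). For Plin4 they were Rad54b (0.111), Crybg1 (0.116) and Plscr2 (0.125). These likenesses are descriptions over 7 means.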

How the data were processed

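The authors deposited 2 tables of read counts per gene symbol, raw and not normalized, for whole and for dorsal hippocampus. The tools STAR, HTSeq 0.9.1, SAMtools 1.1, limma and DESeq2 and the build mm10 are listed without settings, per the submitters' processing notes. Per the labels' protocols, poly(A) RNA was prepared with a kit that keeps no strand. Each table was fitted separately with edgeR 4.0.16 (R 4.3.3): genes were kept by filterByExpr (minimum count 10, minimum total 15), TMM scaling and the quasi-likelihood F test were applied, with Benjamini-Hochberg adjustment over all kept genes and a threshold of 0.05. The whole fit used genotype over 6 libraries, and the dorsal fit used group and batch over 17. Standard errors are approximate, from the difference and its F statistic. DESeq2 1.42.0, RLE scaling, no filter, a replicate block, single batches, no batch term, the compared groups alone and leaving out each library were alternatives. Nothing in the labels shows that libraries of a group came from separate animals, so p-values measure the spread between these libraries, whose counts differed beyond sampling noise (chi-square per gene 6.10 to 62.1 between libraries of 1 group). The genes and lists were chosen with earlier results of these data known. All 10 genes were named in each comparison, and from the lists the genes called or otherwise up to 3 with the smallest p; 1 list gene is not reported here. Similar patterns were sought for the 3 members of widest range (pseudocount 0.5). Gene positions come from GENCODE M21, start windows from RefSeq.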

Additional observations from a re-analysis of the deposited data

Results flagged for a closer look

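Single libraries stood far from the rest of their group in 5 of 30 sets of 4 or 5 values examined for the 10 genes. Chance alone flags about 1 in 20 such sets. Fkbp5 had 56.5 CPM in dorsal WT home cage 2, with the next lowest of its group at 75.5. Tsc22d3 had 42.0 CPM in KO home cage 3, with the next lowest at 56.4. Zbtb16 had 101 CPM in WT home cage 1, with the next highest at 77.8, and 47.6 CPM in KO fear 1, where the other 3 libraries lay at 56.4 to 56.5. Arrdc2 had 7.19 CPM in WT home cage 1, with the next lowest at 9.18. WT home cage 1 and 2 and KO fear 1 were all from batch B1, and the part of the batch in these values was not tested.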

How the results depend on the processing

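Of 1748 alternative values for single genes, 1537 kept direction and side of the threshold, 118 lost and 27 gained a call, and 66 changed sign, none of them a called value. The number of the 10 genes called in whole KO against Het, 2, was 1 with RLE scaling, 4 with no filter, 4 with DESeq2 and 0 with the compared groups alone. Of all genes 13 were called there, and 12, 23, 137 and 7 in those fits in turn. In Het against WT the number of the 10 called was 4 with DESeq2, beside 147 of all genes. In WT fear against home cage, 1, it was 2 with DESeq2 and 0 with the compared groups or B1 alone, and without the batch term the 1 gene was Nr3c1 in place of Ddit4. In fear KO against WT, 3, it was 1 without the batch term, with the compared groups alone or in B1 alone. In the genotype by fear test it was 1 with DESeq2. Leaving out single dorsal libraries gave 0 to 1 of the 10 in WT fear, 0 to 3 in fear KO against WT and 0 to 2 in the genotype by fear test. Over all genes the same fits gave 6 to 829, 1 to 4610 and 0 to 1007. In whole hippocampus each such fit leaves a lone library in 1 genotype. The causes were not tested.

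Counts over all genes moved further. KO against WT gave 6 genes and 19 with DESeq2. Het against WT gave 0, 3 with no filter and 147 with DESeq2. KO against Het gave 13, 23 with no filter, 137 with DESeq2 and 7 with the compared groups alone. WT fear gave 241, 528 with no filter, 938 with DESeq2, 712 without the batch term, 19 with the compared groups and 5 in B1. KO fear gave 0, 6 with DESeq2, 1 without the batch term and 2 in B3. Home cage KO against WT gave 1, and 2 with no filter, DESeq2 or no batch term. Fear KO against WT gave 3298 and 1544 without the batch term. The genotype by fear test gave 71, 130 with RLE, 400 with no filter, 904 with DESeq2 and 0 without the batch term. With single libraries left out the ranges were 5 to 7, 0 to 1424, 6 to 1211, 6 to 829, 0 to 0, 1 to 585, 1 to 4610 and 0 to 1007 in the order of these sentences.

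Replicate numbers in the labels gave no clear sign of pairing in dorsal libraries. Same-number correlations there ran from -0.643 to 0.549, 17 of 22 at or under 0.1, and 4 of 17 libraries correlated best with their own number. In whole libraries they ran from -0.795 to 0.368, 4 of 6 at or under 0.1, and 0 of 6 libraries correlated best with their own number. With 2 libraries per genotype each of these values occurs under both numbers by construction, so they cannot decide whether whole libraries are paired. With the number as a block, 0 of the 10 genes were called in KO against Het, WT fear and fear KO against WT, and 7, 15 and 1 of all genes, with 0 in the genotype by fear test. The block turned the sign of Nr3c2 in WT fear (-0.050) and KO fear (-0.038), Nr3c1 in home cage KO against WT (0.0074) and Tsc22d3 in fear KO against WT (-0.033).

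Without the batch term the sign changed for Fkbp5 (-0.047) and Nr3c2 (-0.0062) in WT fear, Plin4 (0.18) and Ddit4 (-0.13) in KO fear, Fkbp5 (0.0085) and Pdk4 (-0.030) in home cage KO against WT, Pdk4 (-0.065) and Arrdc2 (0.21) in fear KO against WT and Arrdc2 (0.0071) in the genotype by fear test. With the compared groups alone it changed for Sgk1 in WT fear (0.0069), Tsc22d3 in KO fear (-0.038) and Arrdc2 in fear KO against WT (0.012). In single batches it changed for Sgk1 in WT fear (0.023, B1), Tsc22d3 in KO fear (-0.043, B3) and Arrdc2 in fear KO against WT (0.011, B1).

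Leaving out single libraries, small differences crossed 0 as follows. In whole libraries Nr3c2 in KO against WT ran from -0.14 to 0.062 and Zbtb16 in Het against WT from -0.017 to 0.14. In WT fear, Fkbp5 ran from -0.0061 to 0.28, Sgk1 from -0.092 to 0.083, Arrdc2 from -0.23 to 0.063 and Nr3c2 from -0.022 to 0.23. In KO fear, Tsc22d3 ran from -0.014 to 0.11 and Plin4 from -0.21 to 0.13. In home cage KO against WT, Sgk1 ran from -0.10 to 0.027, Plin4 from -0.51 to 0.0048, Arrdc2 from -0.013 to 0.069 and Nr3c1 from -0.098 to 0.014. In fear KO against WT, Sgk1 ran from -0.00023 to 0.32, Tsc22d3 from -0.076 to 0.14, Pdk4 from -0.18 to 0.36 and Arrdc2 from -0.19 to 0.053. In the genotype by fear test, Pdk4 ran from -0.18 to 0.20, Arrdc2 from -0.18 to 0.025 and Nr3c2 from -0.13 to 0.12.

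Depth limits Plin4 most, at 4 to 32 reads per dorsal library, and the WT fear group, with 3 shallow libraries from 1 batch. With 2 libraries per genotype, leaving 1 out leaves a lone library that is assumed to vary like the other groups.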
